A study of Mus musculus with 8 samples.

Results

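Collagen chain genes were examined on 8 Affymetrix arrays of primary malignant peripheral nerve sheath tumours, sarcomas of the nerve sheath, from NPcis mice. They comprise 44 of the 19938 genes measured. A gene was taken when the array platform annotates a probe set to a single symbol made of Col, a number, the letter a and a number. This found 46 probe sets, and for Col6a5 and Col6a6, with 2 each, the probe set with the higher mean was used. All 44 genes entered every fit, since no filter on low values was applied.

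NPcis mice carry mutations of Nf1 and Trp53 linked on the same chromosome, and every group, vehicle included, has this background. The 4 groups hold 2 arrays each, all taken after 14 hours. The first received vehicle. The rapamycin group was injected intraperitoneally with 5 mg/kg of this inhibitor of mTORC1. The PD-0325901 group was given this MEK inhibitor by oral gavage, 1.5 mg/kg in each of 2 doses a day. The combination group received both drugs at the same doses. The labels give no age, and they do not say that the arrays of a group came from separate animals. P-values therefore measure only the spread between these samples, which may be technical.

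Collagens are the main structural proteins of the extracellular matrix, and each molecule is a triple helix of 3 alpha chains, each chain encoded by its own gene. Fibrillar collagens (types I, III and V among them) build the tensile fibrils of connective tissue, and type IV collagen forms the sheet-like network of basement membranes around vessels, nerve fibres and Schwann cells. FACIT collagens attach to the surface of fibrils, type VI collagen forms beaded filaments around cells, and type VIII and X chains are short and form hexagonal networks. In peripheral nerve, fibroblasts and Schwann cells make these proteins, and Schwann cells need the basement membrane to ensheathe axons.

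Over all genes, the correlation of 2 arrays of the same group ranged from 0.947 to 0.983 (4 pairs), and that of 2 arrays of different groups from 0.953 to 0.980 (24 pairs), so the ranges overlapped. Of the 12 Schwann cell markers listed, 9 were measured, and Sox10 (7.85 to 8.17 over the arrays), S100b (7.12 to 7.32), Erbb3 (7.25 to 7.56) and Foxd3 (7.11 to 7.24) lay below the median level of all genes, 8.25, on every array. Gap43 lay between 7.66 and 9.68, and levels of the other measured markers, Mbp, Ngfr, Cdh19 and Egr2, are not given here. Of the collagen genes, 31 of 44 had a mean above that median level, including 11 of 11 fibrillar, 4 of 8 basement membrane, 6 of 9 FACIT, 5 of 6 beaded filament, 1 of 3 short chain, 3 of 5 anchoring and membrane and 1 of 2 other collagens. Levels of different genes are not otherwise compared here, because each probe set has its own response. For the same reason a position below that median does not show that a gene is not expressed.

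Against vehicle, most collagen genes had a lower mean in every drug group, and none passed the adjusted threshold in limma. With rapamycin 34 of 44 were lower and 10 higher, with a median log2 difference of -0.10 against -0.02 over all genes. With PD-0325901 36 were lower and 8 higher, with a median of -0.12 against -0.01 over all genes. With the combination 29 were lower and 15 higher, with a median of -0.05 against -0.02 over all genes. Of all genes, 54.1%, 53.8% and 53.7% were lower in the same order. These comparisons share the vehicle arrays, so they are not independent of each other.

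Not overlapping means that both arrays of a group lay on the same side of both arrays of the other group. Both rapamycin arrays lay below both vehicle arrays for 12 of 44 members and above them for 1, where 17.9% and 12.5% of all genes did so. For PD-0325901 the counts were 21 below and 1 above, against 20.9% and 17.6% of all genes. For the combination they were 10 below and 2 above, against 22.3% and 17.9%. PD-0325901 was thus the group in which the collagen genes most often lay apart from vehicle, in the lower direction. At an unadjusted p under 0.05 the counts were 1 of 44 for rapamycin (4.93% of all genes), 1 for PD-0325901 (5.84%) and 3 for the combination (9.07%), while limma called 0 of all 19938 genes at the adjusted threshold in each of these comparisons. Single arrays moved these values. Without vehicle array 2 limma called 6, 9 and 9 genes in the same order, and for rapamycin it called 15 without rapamycin array 2 and 4 without rapamycin array 1. The member count for rapamycin was 5 without rapamycin array 1 and 2 without vehicle array 1 or 2. For PD-0325901 it was 0 without vehicle array 2 or PD-0325901 array 2, 3 without rapamycin array 1 or 2, and 2 without vehicle array 1 or combination array 1 or 2. For the combination it was 1 without any one of the vehicle, rapamycin or PD-0325901 arrays. The members' median for rapamycin was -0.20 without rapamycin array 1 and -0.05 without rapamycin array 2, and that for the combination was -0.09 without vehicle array 1. In the bulk tissue measured here, fewer cells of a type and less RNA per cell cannot be told apart.

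**Figure D1:**
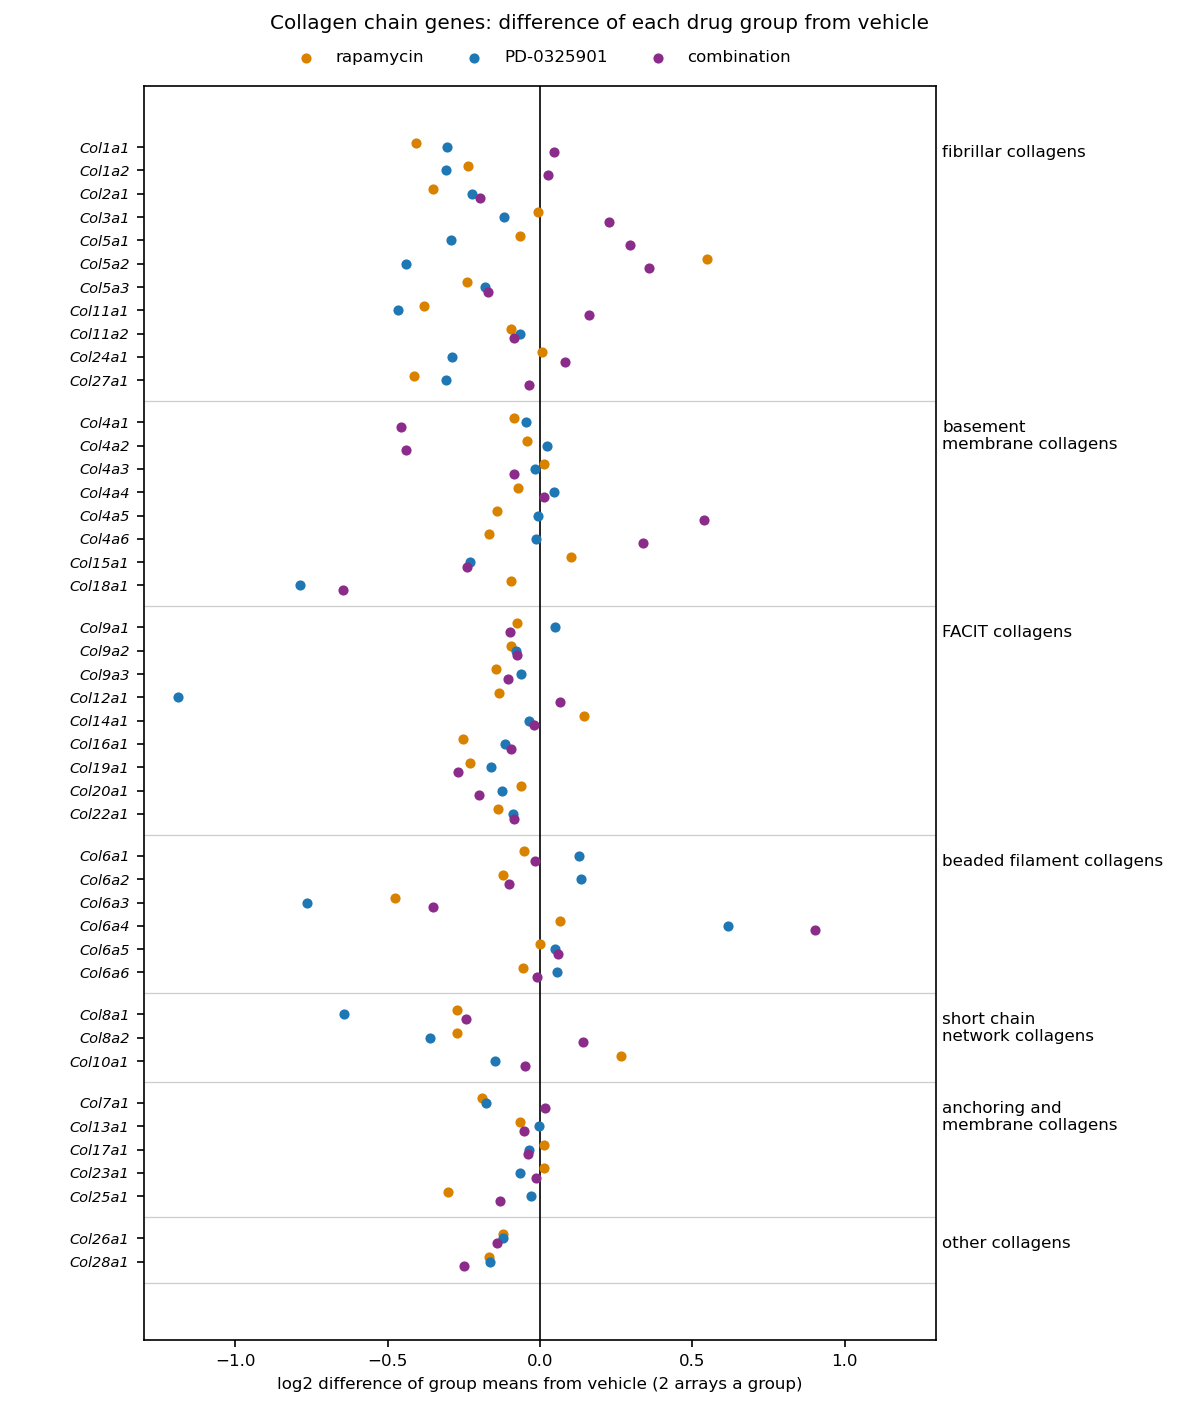
Log2 difference of each drug group's mean from the vehicle mean for the 44 collagen chain genes, arranged by class (each point 1 gene in 1 comparison, 2 arrays a group; orange rapamycin, blue PD-0325901, purple combination). All 11 fibrillar genes sit left of zero for PD-0325901, while 7 of 11 sit right of it for the combination.

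The fibrillar chains showed the pattern that sets the single drugs beside the combination. All 11 fibrillar genes were lower with PD-0325901 than with vehicle (median difference -0.29), 9 of 11 were lower with rapamycin (median -0.24), and 7 of 11 were higher with the combination (median 0.05). Both PD-0325901 arrays lay below both vehicle arrays for 7 of them (20.9% of all genes), and both rapamycin arrays did so for 5 (17.9%). Against PD-0325901 alone, the combination was higher for 10 of 11 (median 0.35, both arrays above for 8, as for 16.3% of all genes), and against rapamycin alone for 10 of 11 (median 0.23, both arrays above for 5, as for 16%). None of these genes passed the adjusted threshold in any comparison. The counts rest in part on single vehicle arrays: without vehicle array 2 the median for PD-0325901 was -0.11 (9 of 11 lower) and that for rapamycin -0.09 (7 of 11 lower), and without vehicle array 1 the median for PD-0325901 was -0.45 and that for the combination -0.15, with 9 of 11 lower. Without combination array 1 the combination's median was -0.06 with 7 of 11 lower, and without combination array 2 it was 0.12 with 2 of 11 lower. Without rapamycin array 1 the median for rapamycin was -0.39 with 11 of 11 lower, without rapamycin array 2 it was -0.12 with 7 of 11 lower, and without PD-0325901 array 2 the median for PD-0325901 was -0.19 with 10 of 11 lower. The combination's median against rapamycin was 0.12 (7 of 11 higher) without rapamycin array 2 and 0.47 without rapamycin array 1. With either combination array left out, 9 of 11 were higher than with rapamycin, and with either PD-0325901 array left out, 9 of 11 were higher than with PD-0325901.

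Col1a1 and Col1a2 encode the chains of type I collagen, the main fibril protein of skin, bone, tendon and nerve sheath. Col1a1 had log2 values of 12.93 and 13.02 with vehicle, 12.82 and 12.32 with rapamycin, 12.73 and 12.62 with PD-0325901, and 13.11 and 12.94 with the combination. Both arrays of each single drug lay below both vehicle arrays, and the combination arrays overlapped the vehicle arrays. The difference from vehicle was -0.41 (SE 0.18, unadjusted p 0.06427) with rapamycin, -0.30 (SE 0.18, p 0.1418) with PD-0325901 and 0.05 (SE 0.18, p 0.8012) with the combination. The combination was higher than rapamycin by 0.46 (SE 0.18, p 0.04492, limma adjusted p 0.7366).

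Col1a2 had values of 12.84 and 13.13 with vehicle, 12.76 and 12.74 with rapamycin, 12.60 and 12.74 with PD-0325901, and 13.11 and 12.91 with the combination. Again all 4 single-drug arrays lay below both vehicle arrays and below both combination arrays. The differences from vehicle were -0.24 (SE 0.14) with rapamycin, -0.31 (SE 0.14) with PD-0325901 and 0.03 (SE 0.14) with the combination.

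Col5a1 and Col5a2 encode chains of type V collagen, which co-assembles with type I collagen and controls the diameter of its fibrils. Col5a1 had values of 9.97 and 10.22 with vehicle, 9.97 and 10.09 with rapamycin, 9.80 and 9.80 with PD-0325901, and 10.57 and 10.21 with the combination. The PD-0325901 arrays were the lowest of the 8, and both combination arrays lay above both arrays of each single drug. The combination exceeded PD-0325901 by 0.59 (SE 0.16, p 0.009754, limma adjusted p 0.9998). Col5a2 ranged more widely within groups, with 10.04 and 11.20 on the vehicle arrays and 11.83 and 10.51 on the rapamycin arrays, 10.47 and 9.90 with PD-0325901 and 11.08 and 10.88 with the combination. Its vehicle arrays alone lay further apart than any of its 3 group means from the vehicle mean, and its difference between PD-0325901 and vehicle was -0.44 with a 95% interval from -1.77 to 0.89.

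Col3a1 encodes type III collagen, the fibril protein of elastic and healing tissue. Its values were 11.29 and 12.51 with vehicle, 12.49 and 11.30 with rapamycin, 12.01 and 11.55 with PD-0325901, and 12.04 and 12.21 with the combination. The vehicle arrays were its lowest and highest, so that every group overlapped vehicle. The difference from vehicle was -0.01 with rapamycin (95% interval -1.28 to 1.26), -0.12 with PD-0325901 (-1.39 to 1.15) and 0.23 with the combination (-1.04 to 1.50). Intervals of this width include more than a doubling in either direction.

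Of the remaining fibrillar genes, Col2a1 encodes the chain of cartilage fibrils. It measured 9.07 and 9.02 with vehicle, 8.73 and 8.66 with rapamycin, 8.90 and 8.75 with PD-0325901, and 8.86 and 8.84 with the combination. All 6 drug arrays lay below both vehicle arrays, and the rapamycin difference of -0.35 (SE 0.10, p 0.01239, limma adjusted p 0.9638) had the smallest p of any member in that comparison. Col27a1, a further fibrillar chain, measured 9.34 and 9.78 with vehicle, 9.30 and 8.99 with rapamycin, 9.29 and 9.21 with PD-0325901, and 9.67 and 9.37 with the combination, so that both single drugs lay below the other 2 groups. Col11a1 spanned 8.24 to 9.82 over the arrays, and both of these extremes were rapamycin arrays, while Col11a2 spanned only 8.41 to 8.54.

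**Figure D2:**
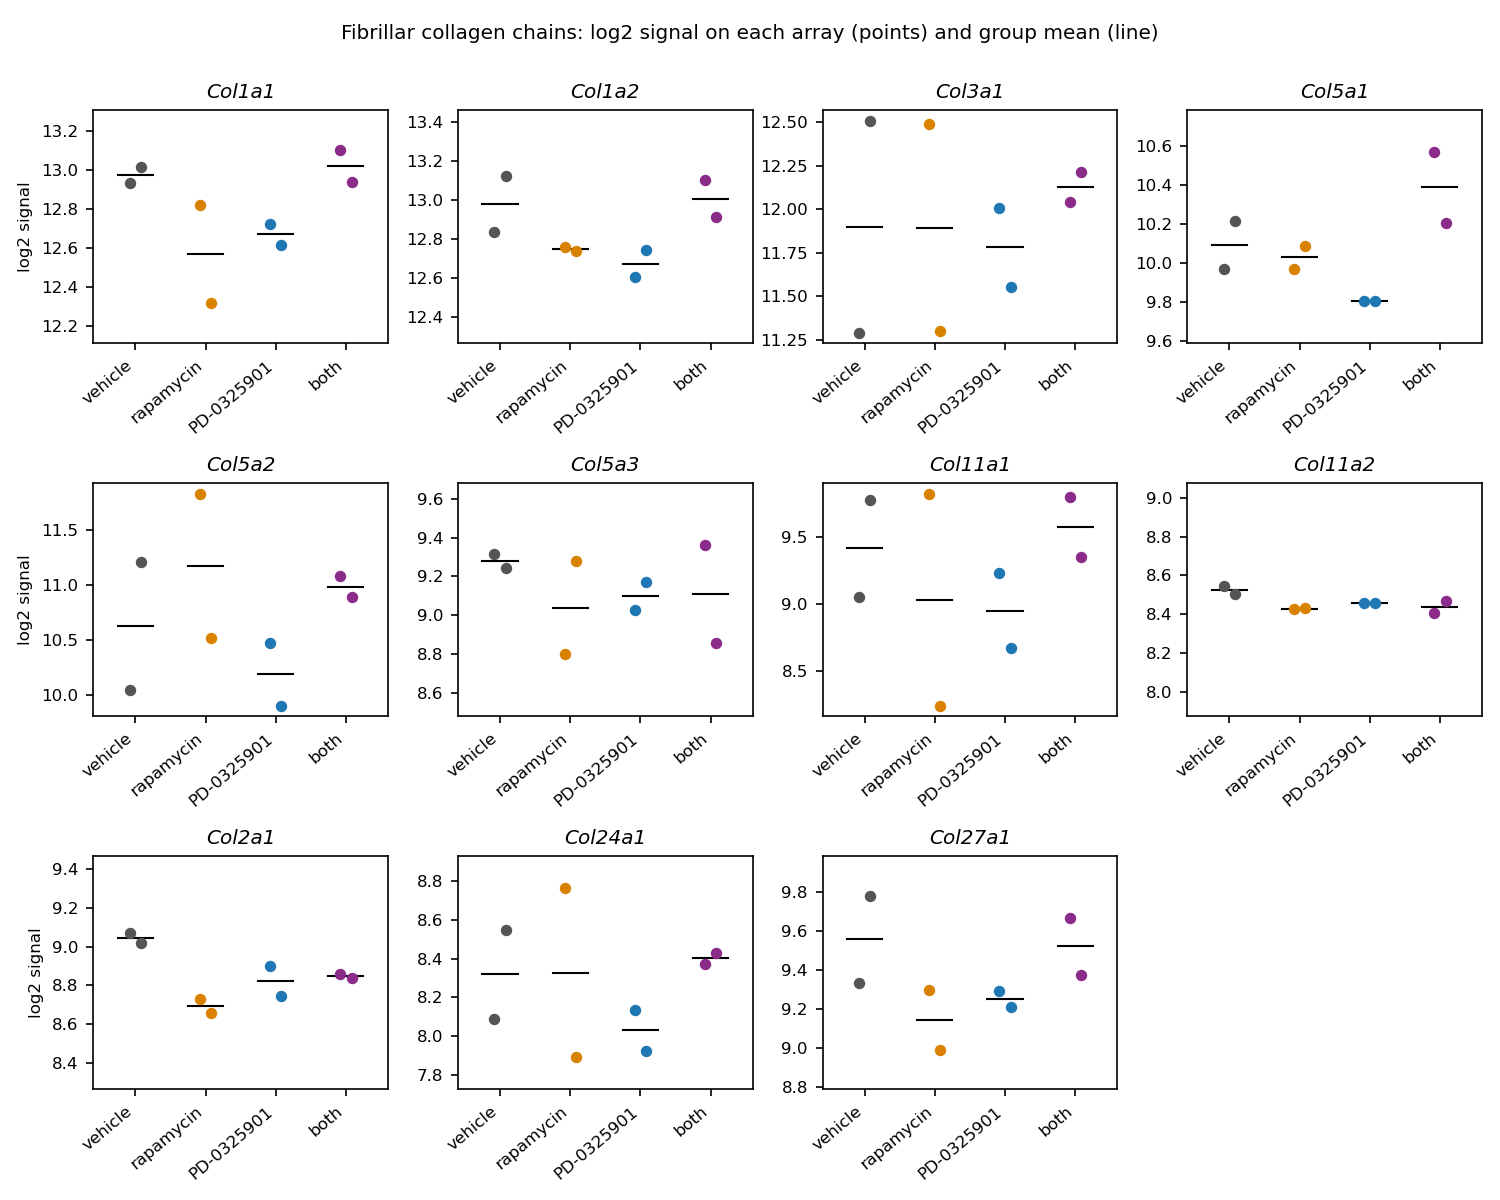
Log2 signal of the 11 fibrillar collagen genes on each array (points; the groups vehicle, rapamycin, PD-0325901 and both drugs on the x axis) with the group mean (line); each panel has its own y axis. For Col1a1, Col1a2 and Col27a1 the 4 single-drug arrays lie below the vehicle and combination arrays, while the vehicle arrays of Col3a1 span 11.29 to 12.51.

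The interaction asks whether the effect of PD-0325901 with rapamycin differs from its effect without it, which is the same value as the reverse question. It was positive for all 11 fibrillar genes (median 0.38) and for 32 of 44 collagen genes (median 0.13), against 51.8% of all genes (median 0.01). limma called 0 genes at the adjusted threshold. At an unadjusted p under 0.05 there were 6 members, all positive, against 2.18% of all genes in either direction and 1.03% with a positive value. These were Col1a1 with 0.76 (SE 0.25, p 0.0246), Col1a2 with 0.57 (SE 0.19, p 0.02614), Col5a1 with 0.65 (SE 0.22), Col4a5 with 0.69 (SE 0.23), Col2a1 with 0.38 (SE 0.14) and Col12a1 with 1.39 (SE 0.56), each with an adjusted p of 0.9999. The last 4 of these were singled out after their values were seen. On the side of lower values Col4a2 (-0.42, SE 0.38) and Col4a1 (-0.32, SE 0.36) had the smallest p of the 12 members there.

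The interaction uses every array, and the count of fibrillar genes with a negative value went from 0 to 3 without rapamycin array 2, to 2 without vehicle array 2, and to 1 without PD-0325901 array 2 or combination array 1. The fibrillar median was 0.80 without rapamycin array 1 and 0.78 without vehicle array 1. The count of 6 members was 1 without vehicle array 2, 3 without rapamycin array 2 or PD-0325901 array 1, and 2 without PD-0325901 array 2 or combination array 1. The median over all 44 members was 0.06 without rapamycin array 2, and limma called 2 genes without vehicle array 2. Rapamycin array 2 was the lowest of the 8 arrays for 17 of 44 members, including 5 of 11 fibrillar genes, where it was lowest for 14.9% of all genes. On that array skeletal muscle markers stood highest (mean score 1.78, the mean of the 8 listed genes' log2 values after each is centred on its mean over the arrays) and fibroblast markers low (-0.63). The part of these markers in the collagen values was not tested.

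Among basement membrane collagens, combination means lay on opposite sides of the vehicle means for 2 type IV gene pairs. Only Col4a5 among them had an unadjusted p under 0.05 in limma, and the higher mean of Col4a6 rested on combination array 2. Type IV collagen is assembled from chains whose genes lie head to head in pairs, Col4a1 with Col4a2, Col4a3 with Col4a4 and Col4a5 with Col4a6. The genes of a pair are read in opposite directions. Col4a1 and Col4a2, the chains of nearly all basement membranes, were lower in the combination, while Col4a5 and Col4a6, chains of the kidney, smooth muscle and skin basement membranes, were higher there. The start regions of these 2 pairs are shown from RefSeq, build GRCm38.p6. Each holds 250 bases before to 50 after the first transcribed base, 5′ to 3′ on the gene's strand. Their part in how the chains varied over the arrays was not tested. For Col4a1 (chr8:11312777-11313076, minus strand) and Col4a2 (chr8:11312555-11312854, plus strand), whose first transcribed bases lie 21 apart, capitals mark the 78 bases that both windows hold, chr8:11312777-11312854, read on opposite strands.
Col4a1: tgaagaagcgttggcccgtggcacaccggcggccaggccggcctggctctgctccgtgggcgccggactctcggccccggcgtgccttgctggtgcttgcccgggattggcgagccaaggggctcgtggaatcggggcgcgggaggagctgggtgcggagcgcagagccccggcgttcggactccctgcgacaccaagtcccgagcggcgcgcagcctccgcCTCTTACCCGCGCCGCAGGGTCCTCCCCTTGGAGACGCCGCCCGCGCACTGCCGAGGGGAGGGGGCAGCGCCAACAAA
Col4a2: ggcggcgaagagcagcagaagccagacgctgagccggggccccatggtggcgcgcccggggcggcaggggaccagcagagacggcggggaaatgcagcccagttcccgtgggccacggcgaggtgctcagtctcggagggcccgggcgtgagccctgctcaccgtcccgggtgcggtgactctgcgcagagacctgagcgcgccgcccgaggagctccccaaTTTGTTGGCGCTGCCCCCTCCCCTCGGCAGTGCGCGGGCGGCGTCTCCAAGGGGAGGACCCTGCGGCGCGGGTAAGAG
The first transcribed bases of Col4a5 (chrX:141475169-141475468, plus strand) and Col4a6 (chrX:141474027-141474326, minus strand) lie 1343 bases apart, so their windows share none. Capitals there mark CCAAT and GGGCGG on either strand, the letters that the CCAAT-binding factor NF-Y and the factor Sp1 are known to bind.
Col4a5: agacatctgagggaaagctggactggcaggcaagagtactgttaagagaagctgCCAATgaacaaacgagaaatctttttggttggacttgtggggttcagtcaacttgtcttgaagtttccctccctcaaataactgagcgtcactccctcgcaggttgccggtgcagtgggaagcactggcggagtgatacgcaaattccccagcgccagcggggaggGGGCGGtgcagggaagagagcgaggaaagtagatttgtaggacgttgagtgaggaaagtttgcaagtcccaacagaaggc
Col4a6: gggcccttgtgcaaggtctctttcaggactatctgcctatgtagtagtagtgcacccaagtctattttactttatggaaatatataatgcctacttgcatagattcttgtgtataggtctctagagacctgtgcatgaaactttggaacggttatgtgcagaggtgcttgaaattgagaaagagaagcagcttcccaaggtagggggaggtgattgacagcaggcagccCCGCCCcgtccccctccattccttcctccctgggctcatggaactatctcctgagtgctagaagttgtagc
A window was found for 35 of 44 members. Those without one were Col1a1, Col2a1, Col4a3, Col5a2, Col9a3, Col12a1, Col14a1, Col22a1 and Col26a1. On either strand CCAAT was in a window of 13 of the 35 members (37.4% of all 32851 windows of this length), GGGCGG in 22 (35.7%), TATAAA in 5 (13.6%), TGANTCA, where N is any base, in 1 (7.81%) and CAGACA in 9 (21.0%). These are matches of letters, and binding was not measured. A member counted if any of its windows matched, and 3 members had several, whereas the percentages count windows. The counts of members and the shares of windows are thus not strictly alike.

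Col4a1 had values of 9.96 and 10.39 with vehicle, 10.21 and 9.97 with rapamycin, 9.83 and 10.43 with PD-0325901, and 9.88 and 9.57 with the combination. The combination arrays lay below both vehicle and both rapamycin arrays but overlapped the PD-0325901 arrays. Its difference was -0.46 (SE 0.26) from vehicle, -0.37 (SE 0.26) from rapamycin and -0.41 (SE 0.26) from PD-0325901. Col4a2 had 9.87 and 10.29 with vehicle, 10.23 and 9.85 with rapamycin, 9.79 and 10.42 with PD-0325901, and 9.77 and 9.51 with the combination, lowest in the combination against every other group. Its differences were -0.44, -0.40 and -0.46 in the same order (SE 0.27 each). None had an unadjusted p under 0.05. Endothelial markers come from the vessels that Col4a1 and Col4a2 sheathe. They were also lower in the combination than with vehicle for 9 of 12 (median -0.40, both arrays below for 8, as for 22.3% of all genes). Against rapamycin 12 of 12 were lower (median -0.74), where 48.3% of all genes were higher. Against PD-0325901 9 of 12 were lower (median -0.07), where 47.9% of all genes were higher. Both arrays lay below the PD-0325901 arrays for 2, close to the share of 18.2% over all genes. The first median was -0.23 without vehicle array 1 and the second -0.48 without rapamycin array 1 (10 of 12 lower). The third was 0.15 without PD-0325901 array 2 (4 of 12 lower), -0.33 without PD-0325901 array 1, 0.02 without combination array 1 (5 of 12 lower) and -0.21 without combination array 2. The mean endothelial score ranged from -0.37 to -0.22 on the combination arrays, -0.13 to 0.24 with vehicle, 0.12 to 0.63 with rapamycin and -0.39 to 0.11 with PD-0325901. The part of vessel content in the Col4a1 and Col4a2 values was not tested.

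Col4a5 had values of 8.24 and 7.96 with vehicle, 8.04 and 7.88 with rapamycin, 7.95 and 8.24 with PD-0325901, and 8.52 and 8.76 with the combination. The combination arrays were its 2 highest, and the other 3 groups overlapped one another. The combination was higher than vehicle by 0.54 (SE 0.17, p 0.01761, limma adjusted p 0.4471), than rapamycin by 0.68 (SE 0.17, p 0.006382, adjusted p 0.5814) and than PD-0325901 by 0.54 (SE 0.17, p 0.01687, adjusted p 0.9998). It was the only member with an unadjusted p under 0.05 in all 3 comparisons of the combination. Its mean level of 8.20 was slightly under the median of all genes. Col4a6 measured 7.50 and 7.31 with vehicle, 7.31 and 7.16 with rapamycin, 7.33 and 7.45 with PD-0325901, and 7.36 and 8.12 with the combination, so its higher combination mean rested on combination array 2. Col4a3 and Col4a4, chains of the glomerular basement membrane, spanned only 7.56 to 7.75 and 7.37 to 7.59 over the arrays.

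Col15a1 and Col18a1 encode basement membrane collagens whose C-terminal fragments, endostatin from type XVIII among them, restrain vessel growth. Col15a1 measured 9.17 and 9.21 with vehicle, 9.18 and 9.40 with rapamycin, 8.81 and 9.11 with PD-0325901, and 9.04 and 8.86 with the combination. All 4 arrays with PD-0325901 lay below all 4 without it, a pattern that 2.39% of all genes showed and 1 of 44 members. The main effect of PD-0325901 was -0.28 (SE 0.10, p 0.03393, limma adjusted p 0.4693). Col18a1 measured 10.62 and 9.95 with vehicle, 9.53 and 10.85 with rapamycin, 9.25 and 9.74 with PD-0325901, and 9.84 and 9.44 with the combination. Its PD-0325901 arrays lay below both vehicle arrays (difference -0.79, SE 0.47), but its rapamycin arrays spanned nearly the whole range.

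**Figure D3:**
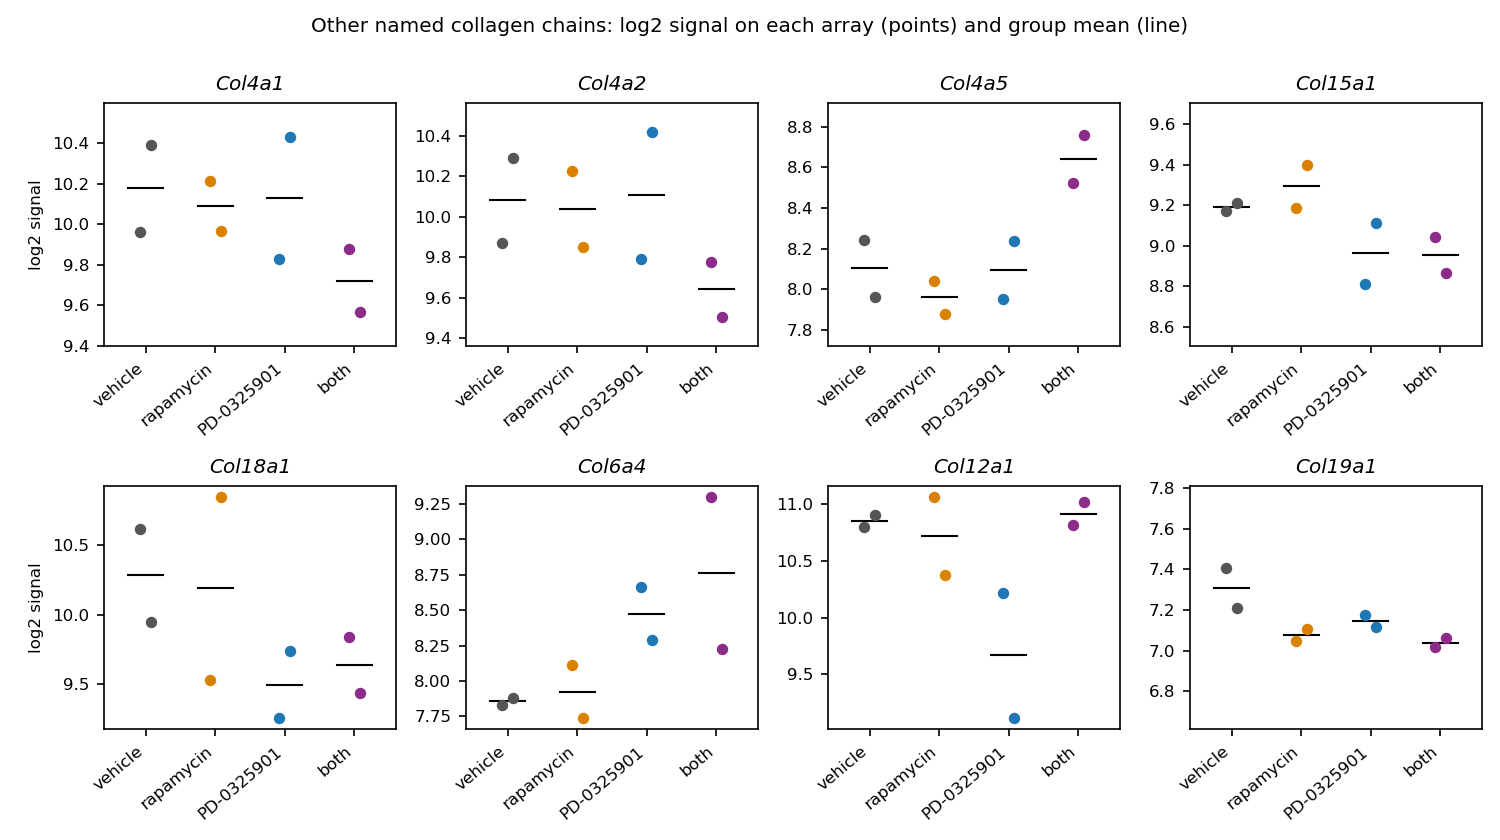
Log2 signal of 8 further collagen genes on each array (points; groups on the x axis) with the group mean (line); each panel has its own y axis. The combination arrays of Col4a5 are the highest (8.52 and 8.76) and those of Col4a2 the lowest (9.77 and 9.51), and the 4 arrays with PD-0325901 lie apart from the 4 without it for Col15a1 and Col6a4.

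Among the FACIT collagens 8 of 9 were lower than vehicle with each drug and with the combination. Col12a1, whose product binds along type I fibrils and bears load in tendon and wounds, had the largest difference from vehicle of any member. It measured 10.80 and 10.91 with vehicle, 11.07 and 10.38 with rapamycin, 10.22 and 9.11 with PD-0325901, and 10.81 and 11.03 with the combination. The PD-0325901 arrays were the 2 lowest, with an SD of 0.78 between them against 0.07 with vehicle. PD-0325901 was lower than vehicle by a difference of -1.19 (SE 0.39, p 0.02343, limma adjusted p 0.7346), and the combination was higher than PD-0325901 by 1.25 (SE 0.39, p 0.01896, adjusted p 0.9998). Without PD-0325901 array 2 these were -0.63 and 0.70, and without PD-0325901 array 1 they were -1.74 and 1.81.

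Col19a1, a FACIT chain of basement membrane zones, measured 7.41 and 7.21 with vehicle, 7.05 and 7.11 with rapamycin, 7.17 and 7.12 with PD-0325901, and 7.02 and 7.06 with the combination. All 6 drug arrays lay below both vehicle arrays, at levels under the median of all genes. Its combination difference was -0.27 (SE 0.11, p 0.04459, limma adjusted p 0.5362), and it was -0.17 without vehicle array 1. In the main effect of rapamycin, where limma called 0 genes and 0 of 44 members had an unadjusted p under 0.05 (5.55% of all genes), the values with the smallest p were 0.26 for Col5a1 (SE 0.11), 0.56 for Col12a1 (SE 0.28), -0.16 for Col2a1 (SE 0.07) and -0.17 for Col19a1 (SE 0.07). That count of members was 3 without vehicle array 2 or rapamycin array 2, 2 without rapamycin array 1 or combination array 2, and 1 without PD-0325901 array 1 or 2 or combination array 1, and limma called 2 genes without vehicle array 2. All 4 rapamycin-treated arrays lay below the 4 others for 2 members, Col19a1 and Col9a3, against 1.94% of all genes.

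Of the beaded filament collagens, Col6a1, Col6a2 and Col6a3 encode the 3 chains of classical type VI collagen, the microfibril that anchors cells to the surrounding matrix. Col6a1 measured 11.66 and 12.00 with vehicle, 12.31 and 11.24 with rapamycin, 11.93 and 11.99 with PD-0325901, and 11.77 and 11.86 with the combination. The 2 rapamycin arrays were its highest and lowest, and the same held for Col6a2 (11.76 and 10.69, with 11.17 to 11.53 on the vehicle arrays). Their differences from vehicle lay between -0.12 and 0.13 in all 3 drug groups, with 95% intervals as wide as -0.97 to 0.73 for Col6a2 with rapamycin. Col6a3 measured 11.71 and 12.50 with vehicle, 12.03 and 11.22 with rapamycin, 11.29 and 11.39 with PD-0325901, and 12.36 and 11.14 with the combination. Its PD-0325901 arrays lay below both vehicle arrays, with a difference of -0.76 (SE 0.49, p 0.1687).

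Col6a4 encodes an additional type VI chain that can take the place of the chain from Col6a3. It measured 7.83 and 7.88 with vehicle, 8.11 and 7.74 with rapamycin, 8.67 and 8.29 with PD-0325901, and 9.30 and 8.22 with the combination. All 4 arrays with PD-0325901 lay above all 4 without it, as for 3.34% of all genes and 1 of 44 members. The main effect of PD-0325901 was 0.73 (SE 0.25, p 0.02827, limma adjusted p 0.4431). Against vehicle the combination was higher by 0.90 (SE 0.36, p 0.04499, adjusted p 0.5367), and by 0.37 without combination array 1. In this main effect limma called 0 genes, and 3 of 44 members had an unadjusted p under 0.05 (9.60% of all genes): Col6a4, Col15a1 and Col4a5, the last of them outside the rule for naming because its groups overlapped. Without vehicle array 2 limma called 8 genes. Leaving out vehicle array 1 gave a count of 1 member, leaving out vehicle array 2 or rapamycin array 2 gave 0, and leaving out rapamycin array 1 gave 6. The mouse Col6a4, Col6a5 and Col6a6 genes descend from a common ancestor, and how the probe sets separate their transcripts is not given in the sources used here. Col6a5 ranged only from 7.67 to 7.89, and Col6a6 differed from vehicle by 0.06 with PD-0325901.

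Short chain collagens, made by endothelium and smooth muscle (type VIII) and by growth plate cartilage (type X), were all lower with PD-0325901 than with vehicle, with both arrays below for 3 of 3 (20.9% of all genes). Col8a1 measured 11.10 and 10.95 with vehicle, 11.11 and 10.41 with rapamycin, 10.67 and 10.10 with PD-0325901, and 11.30 and 10.27 with the combination. Its difference with PD-0325901 was -0.64 (SE 0.41, p 0.1656), and its 2 combination arrays lay on either side of the vehicle arrays. Col8a2 differed by -0.36 (SE 0.32) and Col10a1 by -0.15 (SE 0.18), and Col10a1 was the member that lay above vehicle on both rapamycin arrays (0.27, SE 0.18). The anchoring and membrane collagens (Col7a1 of the skin's anchoring fibrils, and the transmembrane chains Col13a1, Col17a1, Col23a1 and Col25a1) were lower with PD-0325901 for 5 of 5, by a median of -0.04. Col26a1 and Col28a1 were lower than vehicle in all 3 drug groups, with differences from -0.12 to -0.25.

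Over all classes, the combination was set against each single drug in the same way. Against rapamycin, 29 of 44 members were higher, as were 48.3% of all genes (median 0.04, against -0.01), 9 with both arrays above (16% of all genes) and 5 with both below (15.1%). Against PD-0325901, 26 of 44 were higher, as were 47.9% of all genes (median 0.01, against -0.01), 11 with both arrays above (16.3%) and 8 with both below (18.2%). limma called 0 genes in both. At an unadjusted p under 0.05 there were 2 members against rapamycin (Col4a5 and Col1a1, 6.66% of all genes) and 3 against PD-0325901 (Col5a1, Col4a5 and Col12a1, with 346 of all genes higher and 253 lower), all of them higher. In the higher direction alone the shares of all genes were 3.95% and 1.74%. The count against rapamycin was 7 without rapamycin array 1 and 5 without combination array 2, and leaving out any single array of the vehicle or PD-0325901 group gave 1. The median against rapamycin was -0.01 without rapamycin array 2 and 0.11 without rapamycin array 1. The median against PD-0325901 was 0.08 without PD-0325901 array 1 and -0.01 without PD-0325901 array 2.

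How the chains of a molecule vary together was examined over the 8 arrays for 11 pairs, with exact permutation p-values adjusted over the 11. The permutations shuffle all 8 arrays freely, although these form 4 groups of 2 arrays that may not come from separate animals. These p-values may therefore be too small. Where r is given without 2 arrays, those left out lay farthest from the median of the gene named first in the pair. Col4a1 and Col4a2, which share a start region, followed each other most closely of all 946 pairs of members (Pearson r = 0.989, permutation p 9.9e-05, adjusted 0.001091; Spearman rho = 0.952, permutation p 0.001141), and r was 0.981 without the 2 arrays farthest from the median. Col6a1 and Col6a2, neighbours on the chromosome, had r = 0.948 (permutation p 0.001314, adjusted 0.007227; rho = 0.929, permutation p 0.002232), which was 0.732 without the 2 farthest arrays. Col4a5 and Col4a6 had r = 0.831 (permutation p 0.009573, adjusted 0.03064; rho = 0.833, permutation p 0.01538), which was 0.933 without the 2 farthest arrays. Col3a1 and Col5a2, neighbours whose chains join different molecules, had r = 0.837 (permutation p 0.01114, adjusted 0.03064; rho = 0.833, permutation p 0.01538), which was 0.903 without the 2 farthest arrays. All 4 of these pairs are neighbours, as are Col4a3 and Col4a4, for which r was -0.021. The pairs shared the arrays and their cell content. The part of position, start region and cell content in these correlations was not tested.

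Deviations from the group means gave r = 0.989 for Col4a1 with Col4a2 and 0.951 for Col6a1 with Col6a2. They gave 0.729 for Col4a5 with Col4a6 and 0.976 for Col3a1 with Col5a2. The 2 deviations of a group mirror each other, so every r within groups rests on few independent values. For Col6a1 with Col6a2 it rested mainly on the rapamycin arrays, where their SDs were 0.756 and 0.759. With vehicle these SDs were 0.239 and 0.257, and they were smaller still in the remaining groups. The neighbours Col4a3 and Col4a4 had r = -0.021 over all 8 arrays (permutation p 0.9644, adjusted 0.9644) and r = 0.398 within groups. Col4a3, Col4a4 and Col11a2 ranged over only 0.19, 0.22 and 0.14 log2 units over the arrays. With so little variation, a low r does not show that 2 chains vary apart. For chains of a molecule on different chromosomes the adjusted p of r was above 0.05: 0.07894 for Col1a1 with Col1a2 (r = 0.718, permutation p 0.04306; rho = 0.905, adjusted 0.01673), 0.07693 for Col8a1 with Col8a2 (r = 0.716), 0.2719 for Col6a2 with Col6a3 (r = 0.535), 0.3615 for Col5a1 with Col5a2 (r = 0.453), 0.4753 for Col6a1 with Col6a3 (r = 0.371) and 0.9308 for Col11a1 with Col11a2 (r = -0.081). Within groups r was 0.252, 0.728, 0.769, 0.248, 0.551 and -0.518 in the same order. Without the 2 farthest arrays r was 0.959, 0.757, 0.394, 0.267, -0.05 and -0.629. The median r over all 946 pairs was 0.131, and 8 pairs (0.846%) exceeded 0.9. Col4a1 with Col4a2 and Col6a1 with Col6a2 were among them, and the others lay outside the 11 pairs chosen. Col24a1 had r = 0.914 with Col5a2, 0.907 with Col3a1 and 0.903 with Col11a1. The rest were Col19a1 with Col11a2 (0.921), Col16a1 with Col3a1 (0.907) and Col7a1 with Col8a2 (0.903). Of these added pairs only Col11a1 and Col24a1 lie on the same chromosome, so a high r was not confined to neighbours.

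**Figure D4:**
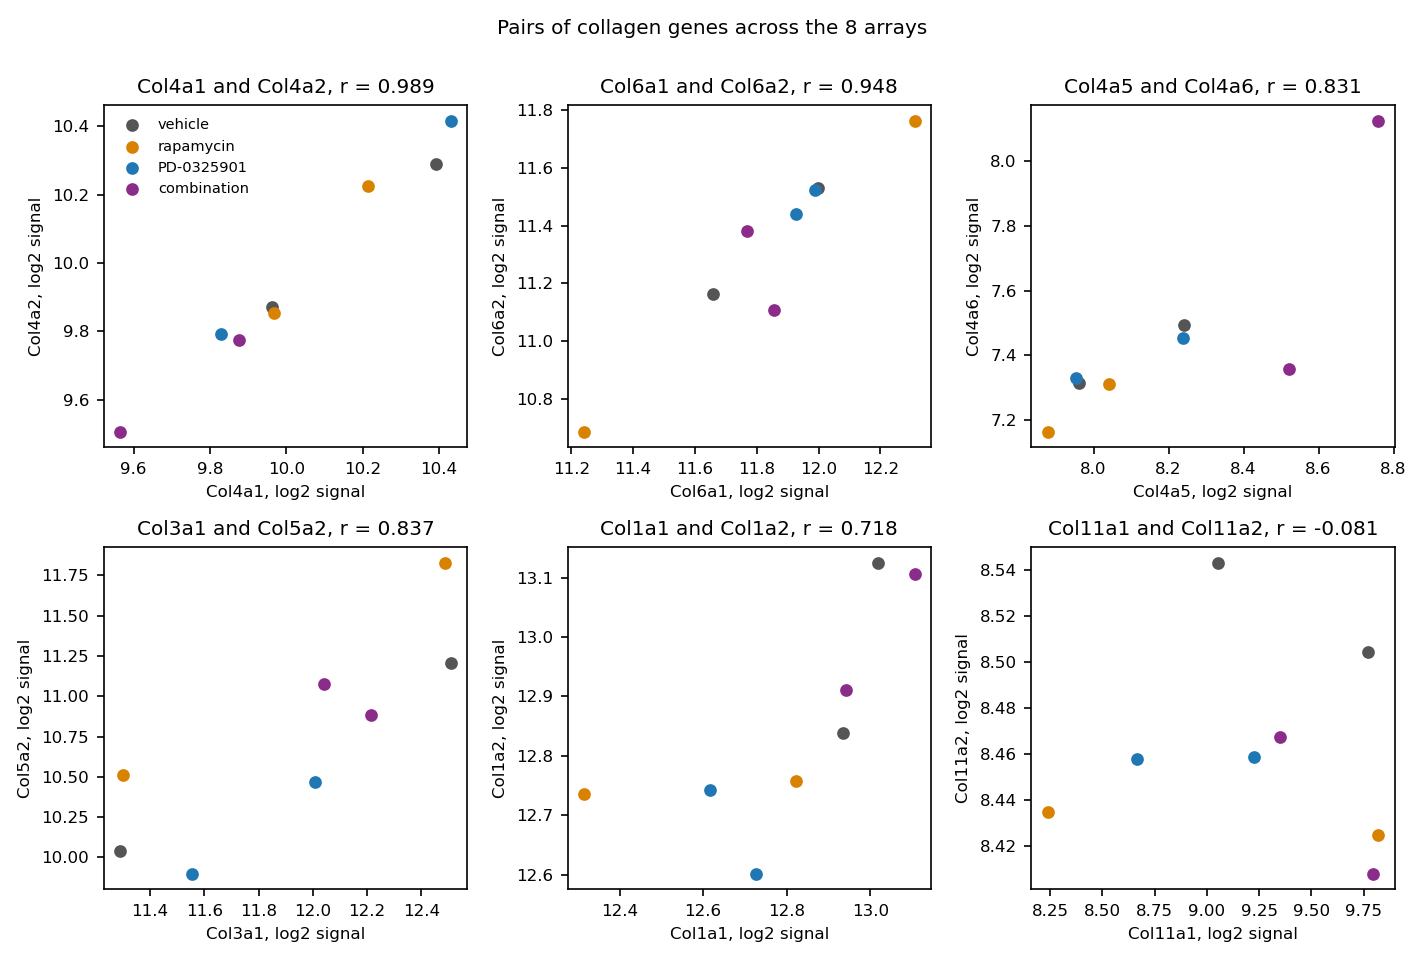
Log2 signal of 6 pairs of collagen genes, 1 gene on each axis; each point is an array, coloured by group (2 arrays a group), and r is Pearson's over the 8 arrays. Col4a1 and Col4a2 lie near a line (r = 0.989), whereas Col11a1 and Col11a2, chains of a common molecule on different chromosomes, do not (r = -0.081). Col11a2 ranged over only 0.14 log2 units, which leaves little variation to follow.

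The within-group spread of the collagen genes was close to that of all genes, with a median SD of 0.193 against 0.171. Over the 8 arrays 12 of 44 members ranged over more than 1 log2 unit, against 19.9% of all genes. Col12a1 (1.95), Col5a2 (1.93), Col18a1 (1.60), Col11a1 (1.58) and Col6a4 (1.56) had the widest ranges. Vehicle array 1 was the highest array for 11 of 44 members, where it was highest for 16.9% of all genes.

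Genes that process, export, join, bind and degrade collagen chains were described with the same fits, and none passed the adjusted threshold. Enzymes that hydroxylate and glycosylate the chains in the endoplasmic reticulum were lower with PD-0325901 than with vehicle for 11 of 14 (median -0.25; 53.8% of all genes were lower), 3 of them at an unadjusted p under 0.05 (5.84% of all genes). These were Plod2 (-1.03, SE 0.39) and Plod3 (-0.44, SE 0.15), lysyl hydroxylases, and P4ha1 (-0.60, SE 0.23), the catalytic subunit of prolyl 4-hydroxylase. The genes with a higher mean were Plod1, another lysyl hydroxylase (0.56, SE 0.32), P4hb (0.17, SE 0.14) and Colgalt1 (0.09, SE 0.31). For Plod1 and P4hb both PD-0325901 arrays lay above both vehicle arrays (17.6% of all genes). P4ha1 measured 11.91 and 11.48 with vehicle, 11.39 and 11.21 with rapamycin, 11.03 and 11.16 with PD-0325901, and 10.58 and 11.14 with the combination. All 6 drug arrays lay below both vehicle arrays, and the combination difference was -0.83 (SE 0.23, p 0.01147, limma adjusted p 0.4360). Of the folding and export genes, 7 of 8 were lower with PD-0325901 (median -0.27), and Serpinh1, the collagen chaperone HSP47, was lower in the combination by a difference of -0.50 (SE 0.16, p 0.01993).

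Of the propeptide cleavage and fibril assembly genes 10 of 15 were lower with PD-0325901 (median -0.09). Pcolce, the enhancer of the protease that removes the C-propeptide of fibrillar chains, measured 12.28 and 12.48 with vehicle, 12.43 and 12.37 with rapamycin, 11.98 and 12.00 with PD-0325901, and 12.30 and 12.30 with the combination. Its PD-0325901 arrays were the 2 lowest of the 8, and the difference from vehicle was -0.39 (SE 0.10, p 0.009579, limma adjusted p 0.6341). Cross-linking enzymes were lower with PD-0325901 for 4 of 5 (median -0.08), and Lox, the lysyl oxidase, overlapped between vehicle (11.98 and 11.43) and PD-0325901 (11.69 and 11.62). Among 9 genes for collagen receptors and uptake 5 were lower (median -0.16). Lair1, an inhibitory collagen receptor of leukocytes, was higher by 0.61 in the main effect of PD-0325901 (SE 0.12, p 0.002456, limma adjusted p 0.2075).

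Collagen degradation genes were lower with PD-0325901 for 4 of 7 (median -0.34). Mmp13, the interstitial collagenase of rodents, measured 9.86 and 7.36 with vehicle, 8.77 and 9.80 with rapamycin, 6.61 and 7.09 with PD-0325901, and 6.93 and 7.54 with the combination. Its arrays with and without PD-0325901 overlapped only through vehicle array 2 and combination array 2, and the main effect was -1.90 (SE 0.58, p 0.01672, limma adjusted p 0.3827). Mmp14, the membrane-bound collagenase, measured 11.94 and 11.71 with vehicle, 11.38 and 11.46 with rapamycin, 11.62 and 11.35 with PD-0325901, and 11.95 and 12.13 with the combination. Both single drugs lay below vehicle and the combination above it, with differences of -0.40 (SE 0.15, p 0.03307), -0.34 (SE 0.15, p 0.0594) and 0.22 (SE 0.15, p 0.1909), and the interaction, singled out after its value was seen, was 0.96 (SE 0.21, p 0.003589, limma adjusted p 0.9999). Basement membrane partners such as laminins and nidogens were lower with PD-0325901 for 9 of 12 (median -0.14), and Lama5, a laminin chain, was lower in the combination by a difference of -0.83 (SE 0.33, p 0.0441). Ligands, receptors and targets of TGF-beta, the main known inducer of fibrillar collagen genes, were lower with PD-0325901 for 8 of 9 (median -0.50). Smad7, the feedback inhibitor of that pathway, had a main effect of PD-0325901 of -0.54 (SE 0.18, p 0.02219, limma adjusted p 0.4202), with all 4 treated arrays below the 4 others.

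Single arrays moved the medians of these lists for PD-0325901 against vehicle. Chain modification went from -0.37 without vehicle array 1 to -0.05 without vehicle array 2 (8 of 14 lower), folding and export from -0.50 to -0.04 (5 of 8 lower), and propeptide cleavage and fibril assembly from -0.19 to -0.04 (8 of 15 lower), with the same arrays left out. Basement membrane partners went from -0.26 without PD-0325901 array 2 to 0.02 without vehicle array 2 (6 of 12 lower). Leaving out vehicle array 1 gave them -0.24, and leaving out PD-0325901 array 1 gave -0.06. Cross-linking was 0.18 without vehicle array 1 (2 of 5 lower), -0.20 without PD-0325901 array 2, and -0.32 when vehicle array 2 was left out. Folding and export was -0.16 without PD-0325901 array 2. Receptors and uptake was 0.10 without PD-0325901 array 1 (4 of 9 lower), -0.33 without vehicle array 1 and -0.07 without vehicle array 2. Degradation was -0.11 without vehicle array 1, and the TGF-beta list was -0.26 without PD-0325901 array 2 (6 of 9 lower).

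Markers of 10 cell types that such a tumour could hold were described in the same way. Fibroblast markers had a median of 0.55 with PD-0325901 against vehicle (7 of 11 higher), where all 11 fibrillar genes were lower. That median was 0.01 (7 of 11 higher) with vehicle array 1 left out and 0.21 (8 of 11 higher) with PD-0325901 array 2 left out. The mean fibroblast score was -0.69 and 0.22 on the vehicle arrays, 0.47 and -0.63 with rapamycin, 0.13 and 0.42 with PD-0325901, and -0.21 and 0.28 with the combination. The 2 vehicle arrays and the 2 rapamycin arrays thus differed widely within their groups. On vehicle array 1 Lum (8.62 against 11.93 on vehicle array 2) and Dpt (9.03 against 12.47), matrix genes of fibroblasts, were far lower than on the other vehicle array. Macrophage markers were higher with PD-0325901 for 11 of 12 (median 0.57), with both arrays above vehicle for 10 (17.6% of all genes). Pericyte and smooth muscle markers were lower for 7 of 11 (median -0.17), endothelial markers for 8 of 12 (-0.14), Schwann cell markers for 6 of 9 (-0.02), cartilage and bone markers for 9 of 9 (-0.11), skeletal muscle markers for 6 of 8 (-0.06) and epidermis markers for 7 of 8 (-0.11), while adipocyte markers were higher for 4 of 5 (0.10) and erythroid markers for 2 of 2 (1.25). With 1 array of these groups left out, the macrophage median stayed between 0.42 and 0.71. The sign of the median turned for pericyte and smooth muscle (0.30) and endothelial markers (0.09) without PD-0325901 array 1, for skeletal muscle markers (0.55) without vehicle array 1, and for Schwann cell (0.03), adipocyte (-0.105) and erythroid markers (-0.36) without PD-0325901 array 2. The cartilage and bone median was -0.19 when PD-0325901 array 1 was left out, -0.06 when vehicle array 1 was and -0.04 when vehicle array 2 was. Leaving out vehicle array 2 gave an epidermis median of -0.22, and leaving out vehicle array 1 gave -0.015. The adipocyte score was 2.43 on rapamycin array 1 and at most 0.11 on the others, and the erythroid score was 2.57 on PD-0325901 array 2 and at most -0.01 on the others. The part of these cell types in the collagen values was not tested.

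**Figure D5:**
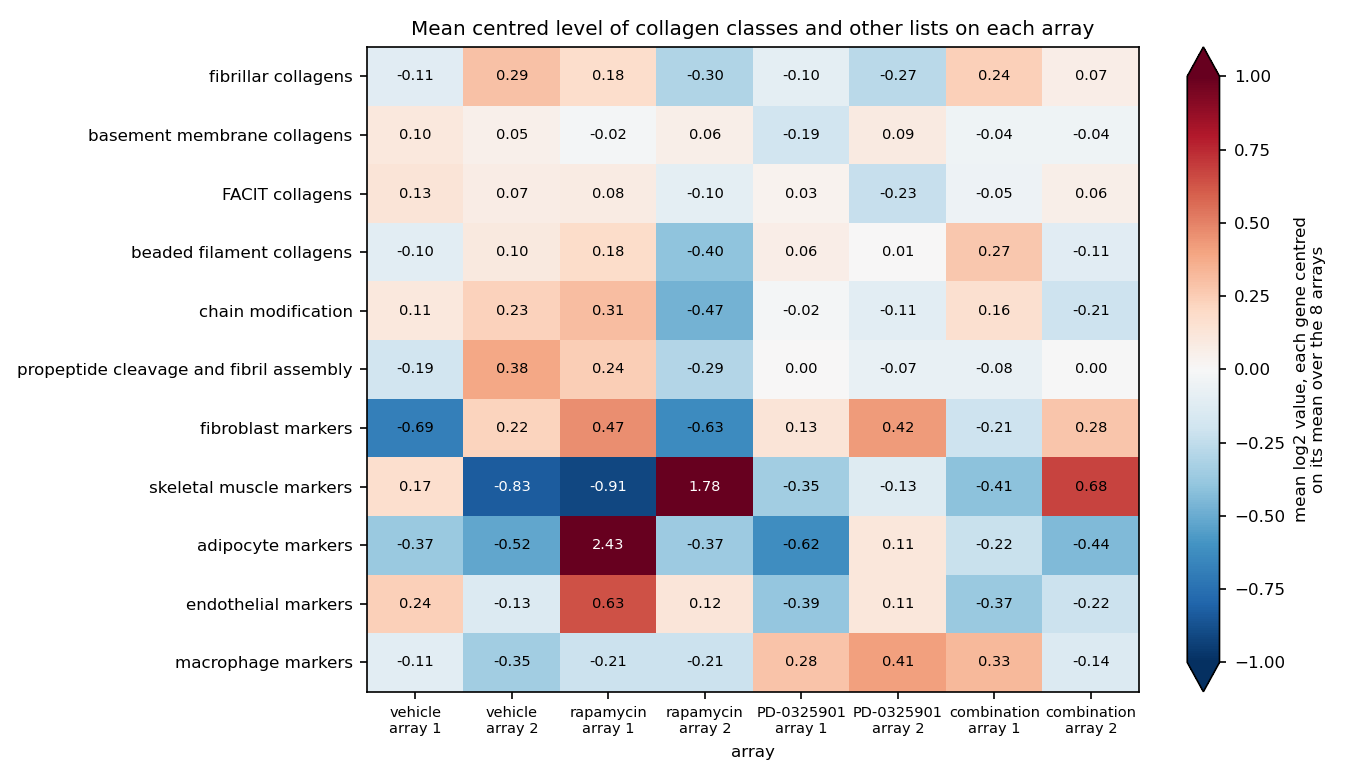
Mean score of collagen classes, processing genes and cell type markers (y axis) on each of the 8 arrays (x axis), the score being the mean of the listed genes' log2 values after each gene is centred on its mean over the arrays (red above, blue below; the colour scale ends at -1 and 1). The fibrillar score is 0.29 on vehicle array 2 and -0.30 on rapamycin array 2, while the fibroblast score is -0.69 on vehicle array 1 and the skeletal muscle score 1.78 on rapamycin array 2.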

How the data were processed

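The 8 samples are single-channel Affymetrix arrays. Per the labels' protocols, Trizol and an RNeasy cleanup were used for extraction, the NuGEN Applause WT-Amp ST kit for labelling, and biotin as the label. The deposited table holds 1 log2 value per probe set and array. The log2 scale was read from the values, which run from 3.36 to 14.36, and how they were background-corrected and normalized is not given in the sources used here. Probe sets were named from the platform annotation: 21789 of 35512 carried a single symbol, 1621 several and 12101 none. The Entrez IDs of 21698 single-symbol probe sets matched the RefSeq gene table, and 0 symbols differed from it. Where a gene had several probe sets, the one with the highest mean was used, with no filter on low values.

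Groups and array numbers came from the sample titles. Group means were fitted with limma 3.58.1 in R 4.3.3 (lmFit and eBayes, two-sided), with all 4 groups sharing 1 estimate of the spread, 4 residual and 1.98 prior degrees of freedom. Benjamini-Hochberg adjustment ran over all 19938 genes, with a threshold of 0.05, and the procedure was tested on simulated data. The main effect of a drug averages its effects in the absence and the presence of the other drug, and the interaction is the effect of PD-0325901 with rapamycin minus that without it. Precision is limited by the number of arrays, since an exact permutation test of 2 against 2 has a smallest p of 0.333. With no difference at all, 997 genes would have an unadjusted p under 0.05.

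The collagen genes, their 7 classes, 8 lists of other collagen pathway genes and 10 lists of cell type markers were chosen with earlier results of these data known, so no list was given a p-value. Members named throughout are the principal chains of types I, III, IV, V and VI, and in each comparison those with the smallest unadjusted p under 0.05 whose groups did not overlap (up to 4 a direction, and up to 2 for the interaction, where no such condition applies). Where none qualified, the 2 smallest p in a direction are given as values only. From the other lists, up to 3 genes with the smallest p in a comparison may be named. Promoter sequences come from RefSeq, build GRCm38.p6. Alternatives were quantile normalization, centring of the arrays on their medians, only genes above the median level, a robust prior with a variance trend, averaging a gene's probe sets, a block for the array number, only the arrays compared, an adjusted p threshold of 0.1, and each array left out in turn. The arrays carry the same numbers in every group, but the correlation of same-numbered arrays' deviations from their group means lay between -0.278 and 0.183 over the 6 pairs of groups, so the numbers were not taken to pair the samples.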

Additional observations from a re-analysis of the deposited data

Results flagged for a closer look

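For 5 collagen genes both PD-0325901 arrays lay below both vehicle arrays while both combination arrays lay above both rapamycin arrays, so that every array with the drug moved one way without rapamycin and the opposite way with it. The interaction was 0.76 for Col1a1, 0.57 for Col1a2, 0.69 for Col27a1, 0.38 for Col2a1 and 0.65 for Col5a1, and limma gave each an adjusted p of 0.9999, so none passed the threshold. Of all genes, 349 of 19938 (1.75%) showed this pattern, and the reverse pattern was seen for 0 of 44 members and 1.37% of all genes.

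For Col1a1, Col1a2 and Col27a1 the same held for rapamycin: both rapamycin arrays lay below both vehicle arrays, and both combination arrays lay above both PD-0325901 arrays. The interaction is the same value seen from the other drug (0.76, 0.57 and 0.69, each with a limma adjusted p of 0.9999). Of all genes 1.75% showed this pattern and 1.41% its reverse, which 0 of 44 members showed. Both drugs' patterns use the same 8 arrays and are not independent of each other.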

How the results depend on the processing

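Of 747 values over 50 results and their alternatives, 653 were labelled as unchanged. For a named member this means the same sign and the same side of the adjusted threshold. A median had to move by less than its SD between arrays of a group (0.0534 for all members, 0.1426 for fibrillar genes). A count had to equal the reported one or stay within a fixed ratio of it. None of the 14 results for named members changed sign under 204 alternatives or reached an adjusted p under 0.05. Some medians changed sign by more than that SD when 1 array was left out. The fibrillar median for the combination against vehicle went from 0.05 to -0.15 without vehicle array 1. Without rapamycin array 2 the members' median for the combination against rapamycin went from 0.04 to -0.01. For the rapamycin main effect it went from -0.03 to 0.03 without the same array. The summaries of the fibrillar genes and of the gene and marker lists with 1 array left out were added after the data were seen. The next values are counts of collagen members at an unadjusted p under 0.05. For rapamycin against vehicle (1) it was 0 with genes above the median level and 0 with the trend and robust prior, and for PD-0325901 against vehicle (1) it was 2 with the array number as a replicate block and 4 with only the arrays compared. For the combination against vehicle (3) it was 1 with quantile normalization, with median centring, with genes above the median level and with only the arrays compared. For the combination against rapamycin (2) it was 1 with median centring, genes above the median level and only the arrays compared, and against PD-0325901 (3) it was 6 with only the arrays compared. For the PD-0325901 main effect (3) it was 1 with genes above the median level, and for that of rapamycin (0) it was 1 with quantile normalization and 1 with the trend and robust prior. For the interaction (6) it was 3 with genes above the median level, where the members' median was 0.24. The replicate block moved no other count or median beyond these limits. Fitting the 4 arrays with PD-0325901 against the 4 without it called 22 genes at the adjusted threshold. An adjusted p threshold of 0.1 changed no count of calls beyond these limits.

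Leaving out 1 array at a time gave these ranges. All genes called were 0 to 15 for rapamycin against vehicle, 0 to 9 for PD-0325901 and for the combination against vehicle, 0 to 8 for the PD-0325901 main effect, and 0 to 2 for the rapamycin main effect and the interaction. Collagen members at an unadjusted p under 0.05 were 1 to 5, 0 to 3 and 1 to 3 for rapamycin, PD-0325901 and the combination against vehicle, 1 to 7 and 2 to 4 for the combination against rapamycin and PD-0325901, 0 to 6 and 0 to 3 for the main effects of PD-0325901 and rapamycin, and 1 to 6 for the interaction. Medians of the members were -0.198 to -0.053 for rapamycin against vehicle, -0.014 to 0.113 and -0.0099 to 0.0755 for the combination against rapamycin and PD-0325901, -0.0679 to 0.0275 for the rapamycin main effect and 0.0552 to 0.171 for the interaction. Fibrillar medians were -0.39 to -0.0917, -0.45 to -0.11 and -0.15 to 0.19 for rapamycin, PD-0325901 and the combination, 0.1205 to 0.4691 for the combination against rapamycin and 0.32 to 0.80 for the interaction. Fibrillar genes lower were 2 to 9 for the combination against vehicle, 1 to 4 and 1 to 2 for the combination against rapamycin and PD-0325901, and 0 to 3 for the interaction. With quantile normalization 2 fibrillar genes were lower in the combination than with rapamycin and 2 than with PD-0325901, and with median centring 2 were lower than with rapamycin (1 in each as reported). The cause of these shifts was not tested. Fits with 1 array in a group assume that it varies like the others.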
